A study of Rattus norvegicus with 11 samples.

Results

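The genes described here are 10 members of the matrix metalloproteinase system of the rat bladder, 7 proteinases (Mmp2, Mmp3, Mmp7, Mmp9, Mmp10, Mmp13 and Mmp14) and 3 tissue inhibitors (Timp1, Timp2 and Timp3). They were taken by gene symbol from a table of 18507 genes, and all 10 were found in it. The study tied the bladder neck and urethra of adult female Sprague-Dawley rats with a suture to produce partial bladder outlet obstruction (PBOO) and, according to its methods, opened and closed the abdomen of the control rats. RNA-seq was done on bladder tissue of 3 normal and 3 PBOO samples at week 4, and of 3 normal and 2 PBOO samples at week 5. The sample descriptions carry the word Input at week 4 only, and those of week 5 read adult (normal) and DO (PBOO). The labels do not explain these words. Which part of the bladder wall was taken is not stated. All groups share strain and tissue, and no genetic change or drug is named for any of them. The labels do not say whether a sample was 1 rat or a pool, so p-values measure only the spread between these samples. In such mixed tissue, fewer cells of a type, less RNA per cell and a different share of the wall layers cannot be told apart.

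Matrix metalloproteinases (MMPs) are zinc enzymes that cut collagens, elastin, proteoglycans and other matrix proteins, and that also release growth factors and cytokines. Most are secreted as inactive proenzymes and are activated by other proteinases, while the tissue inhibitors of metalloproteinases (TIMPs) block the active site. An RNA level says nothing of activation, so the values below are levels of transcript and not of enzyme activity. In the obstructed bladder the wall is remodelled, and the balance of matrix synthesis and breakdown is part of that process.

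Of the 10 members, 4 lie together in the genome. In the RefSeq annotation of the rat assembly GRCr8, Mmp13, Mmp12, Mmp1b, Mmp3, Mmp1, Mmp10, Mmp8, Mmp27, Mmp20 and Mmp7 follow each other in this order on chromosome 8 with no other protein-coding gene between them, and 8 of these 10 genes are in the table. The sequences before the start sites of the 4 members of this row are shown because their transcripts rose at week 5. That before Timp1 is shown beside them. They are the 150 bases before the start site of the RefSeq promoter table, 5′ to 3′, from RefSeq (GRCr8). Capitals mark exact matches to TGANTCA, a consensus of the letters bound by AP-1 (Fos and Jun) factors.
Mmp13, chr8:12782679-12782828, plus strand: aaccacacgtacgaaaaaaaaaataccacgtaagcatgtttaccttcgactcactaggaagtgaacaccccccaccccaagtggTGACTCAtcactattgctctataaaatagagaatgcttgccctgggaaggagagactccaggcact
Mmp3, chr8:12925131-12925280, plus strand: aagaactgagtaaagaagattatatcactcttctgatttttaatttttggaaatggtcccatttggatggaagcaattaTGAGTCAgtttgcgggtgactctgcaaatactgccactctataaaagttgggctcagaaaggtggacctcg
Mmp10, chr8:12974557-12974706, plus strand: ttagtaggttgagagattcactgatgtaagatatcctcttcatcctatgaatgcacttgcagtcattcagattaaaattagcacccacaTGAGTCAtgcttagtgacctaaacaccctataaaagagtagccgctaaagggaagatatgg
Mmp7, chr8:13132893-13133042, plus strand: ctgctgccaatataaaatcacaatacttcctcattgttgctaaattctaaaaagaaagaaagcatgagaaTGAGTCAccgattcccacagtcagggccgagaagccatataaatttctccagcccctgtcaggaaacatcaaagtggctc
Timp1, chrX:3771123-3771272, minus strand: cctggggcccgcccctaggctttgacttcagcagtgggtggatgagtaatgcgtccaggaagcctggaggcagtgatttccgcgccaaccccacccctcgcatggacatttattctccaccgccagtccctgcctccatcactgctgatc

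Within 250 bases before the start, TGANTCA (which reads the same way on both strands apart from its middle base) was found in Mmp13, Mmp3, Mmp10 and Mmp7, with its first base 66, 71, 61 and 80 bases upstream. TATAAA, searched in the direction of transcription only, followed at 47, 32, 33 and 43 bases upstream and did not overlap the AP-1 letters. Mmp7 and Mmp10 each held a further TATAAA, 140 and 196 bases upstream. Of 33469 rat promoters of the same length, 6.34% held TGANTCA and 0.693% held both motifs. The Ets letters AGGAAG, searched on both strands, were in Mmp13, Mmp3 and Mmp7 and in 29.5% of all promoters. Timp1, Timp2 and Timp3 had no exact match to TGANTCA or TATAAA in this window, and 2 Ets matches lay before Timp1. The Timp1 sequence holds TGAGTAA, a near match to TGANTCA. Near matches were not searched, so these results do not show that Timp1 lacks an AP-1 site. Of the other genes of the row, Mmp12, Mmp1 and Mmp20 also held both TGANTCA and TATAAA, and Mmp8 and Mmp27 held neither. Yet Mmp8 was called higher at week 5, and Mmp20 was too low to be tested in either week. Neighbouring MMP genes arose by duplication and are not independent of each other. Promoters of 7 members were in the reference, and those of Mmp2, Mmp9 and Mmp14 were not analysed here. A match is a run of letters and not a shown binding site.

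**Figure D1:**
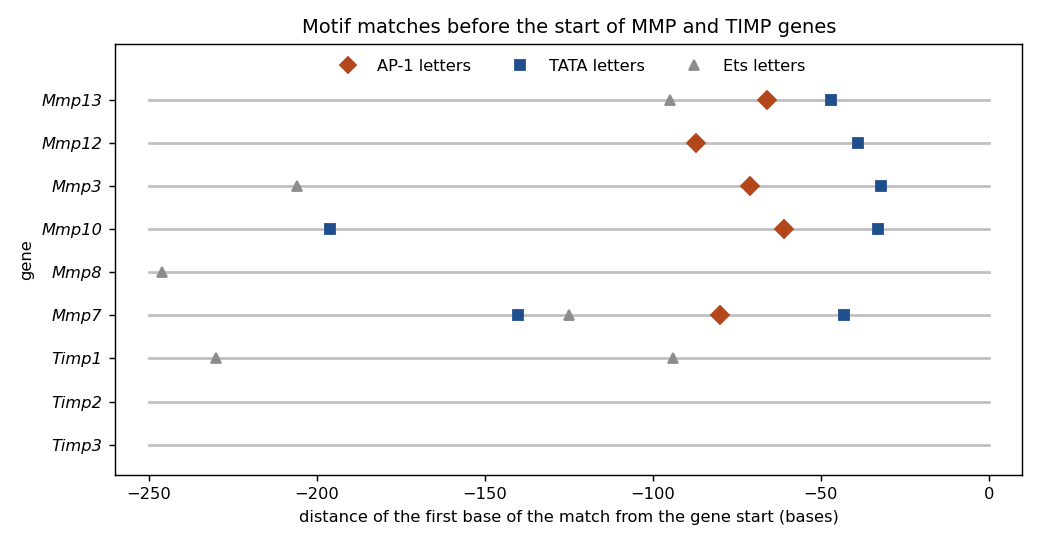
Matches to the AP-1, TATA and Ets letters named in the text in the 250 bases before the start of 6 chromosome 8 MMP genes and 3 TIMP genes, by distance from the start in bases. AP-1 and TATA matches lie side by side in Mmp13, Mmp12, Mmp3, Mmp10 and Mmp7, and in none of the TIMP genes. Mmp8, which was also called higher at week 5, has neither. Mmp20, which has both and was too low to be tested, is not shown.

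Expression is given as FPKM, fragments scaled to exon length and to the mapped fragments of a sample, as deposited. The table holds no read counts, the depth of each sample is unknown, and no counting error can be given. The columns summed to between 424961 and 564343. Marker lists of the bladder's cell types were checked first. All 8 smooth muscle markers and all 10 urothelium markers were present, although Upk3b and Krt7 were listed at 0 in every week 4 sample. A total of 4871 genes were listed at 0 in all 6 samples of week 4 and 403 in all 5 of week 5, so levels are compared within a week. Normal replicate 1 of week 4 stood apart, with a summed level of 8 fibroblast markers of 1088 FPKM against 4054 and 4125 in the other two normal samples, and of 7 macrophage markers of 50.4 against 415 and 437. The PBOO samples of week 5 stood apart from all others in muscle and stroma. Their 8 smooth muscle markers summed to 1849 and 990 FPKM (24543 to 28879 in the normal samples of that week) and their 8 fibroblast markers to 122 and 173 FPKM (1521 to 1939), while the 10 urothelium markers summed to 6928 and 7391 (6348 to 7762). Neutrophil markers summed to 14.9 and 452 FPKM in these samples, against 0.964 to 4.05.

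**Figure D2:**
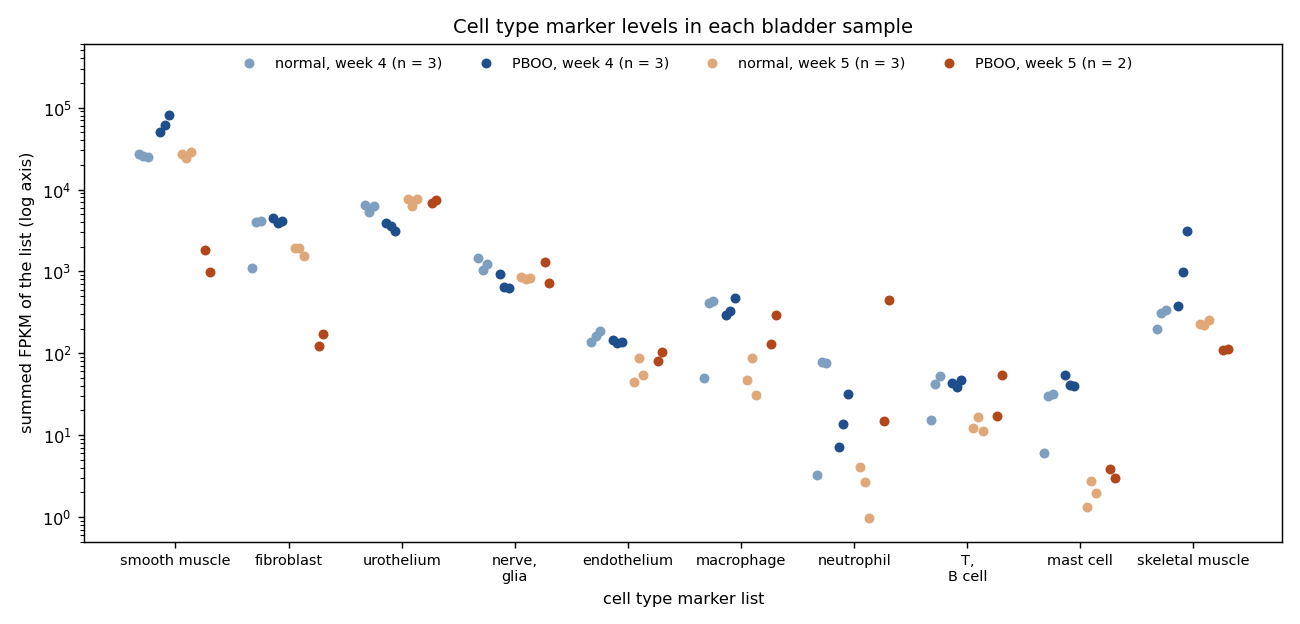
Summed FPKM of each cell type marker list (log axis) in every sample, coloured by group. Smooth muscle and fibroblast sums of the PBOO samples of week 5 lie below all other samples. Normal replicate 1 of week 4 lies below the rest of week 4 in fibroblast, macrophage, neutrophil, mast cell, T and B cell and skeletal muscle markers.

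In normal bladder, 5 members were expressed well above the other 5 in both weeks. At week 4, Timp2 was the highest of them with 287 ± 53.7 FPKM (SD, n = 3), followed by Timp3 (100 ± 16.1), Mmp2 (93.3 ± 47.0), Mmp14 (58.8 ± 8.72) and Timp1 (56.0 ± 4.68). Only the first step of that order, from Timp2 to Timp3, was wider than the ranges of the samples. At week 5 the order was Timp2 (166 ± 14.8 FPKM, SD, n = 3), Mmp14 (78.1 ± 8.84), Mmp2 (55.5 ± 14.9), Timp3 (25.1 ± 3.55) and Timp1 (15.8 ± 3.91), and each of these neighbours had ranges that did not overlap. The other members were low. Mmp3 had 1.19 to 1.37 FPKM at week 4 and 0.322 to 1.09 at week 5, and Mmp13, Mmp7, Mmp10 and Mmp9 lay below 0.9 FPKM on average in both sets of normal samples. Timp1 and Timp3 were lower in the normal samples of week 5 than in those of week 4, but week and processing of the samples cannot be told apart.

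**Figure D3:**
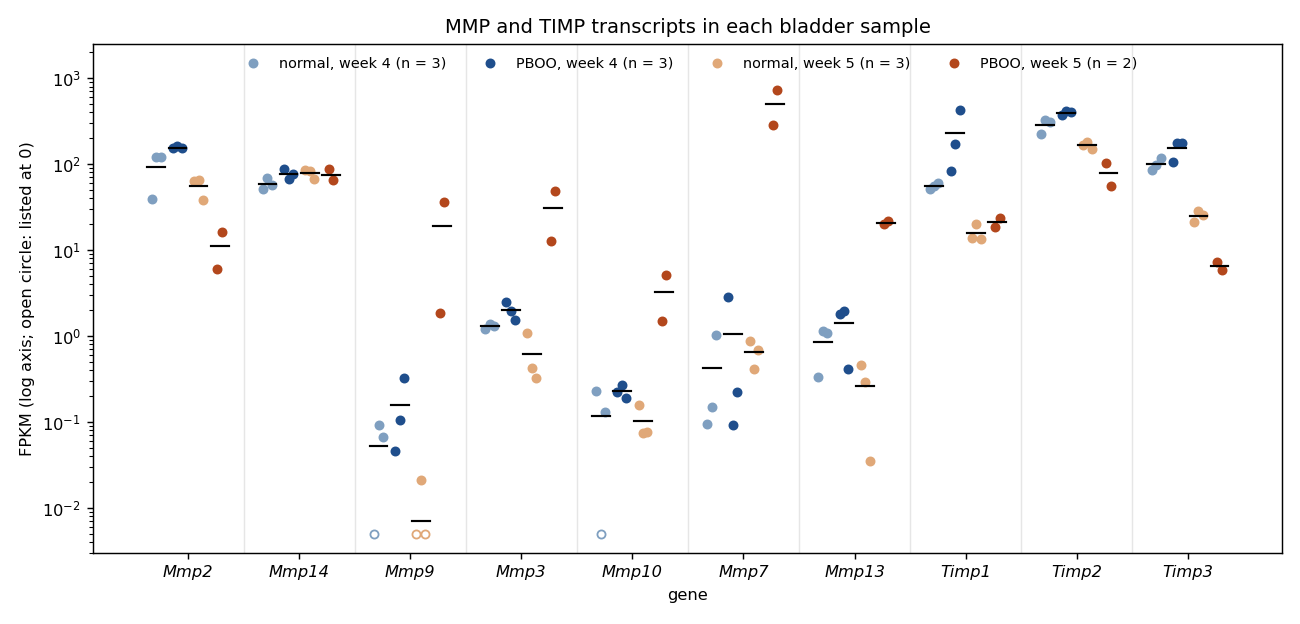
FPKM of the 10 members (log axis) in each of the 11 samples, with black bars at group means and open circles for values listed at 0. Mmp9, Mmp3, Mmp10, Mmp7 and Mmp13 are highest in the 2 PBOO samples of week 5, and Timp1 is highest in the 3 PBOO samples of week 4.

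The first comparison asked which members differed between PBOO and normal bladder at week 4, which the study treats as a turning point. Genes were compared with limma on log2(FPKM + 0.1), a scale that understates the change of low genes, and a gene was called at an unadjusted p under 0.05 with at least a 2-fold difference. Timp1 was the only member called. Its normal samples had 51.7, 55.3 and 61.0 FPKM and its PBOO samples 84.0, 172 and 425 FPKM. Every PBOO sample lay above every normal sample, and the PBOO samples differed widely among themselves. Timp1, a secreted inhibitor that blocks most soluble MMPs, rose by 1.71 on the log2 scale (standard error 0.52, limma adjusted p = 0.0929). Without PBOO replicate 3 the log2 difference was 1.10 (limma adjusted p = 0.122), and without PBOO replicate 1 it was 2.27 (limma adjusted p = 0.0187). A fit over all 11 samples left it at 1.71 with a limma adjusted p of 0.0460. The 8 smooth muscle markers summed to 25307 to 27396 FPKM in normal and 50668 to 81983 FPKM in PBOO samples of week 4, and the 10 urothelium markers to 5309 to 6545 and 3094 to 3940 FPKM. The part of these shifts in the Timp1 value was not tested. Of the 8 members that passed the filter on low values (a mean of at least 0.5 FPKM), 1 was called higher and 0 lower in limma, where 2.46% and 2.45% of all 11320 genes tested were called in those directions (4.90% in either). At an unadjusted p under 0.05 with no fold threshold, 4 of the 8 passed (Timp1, Timp2, Timp3 and Mmp14), all with PBOO above normal on average, and 5.76% of all genes passed in that direction (26.2% in the other). No member reached 4-fold, where 0.636% of all genes were called higher, and none had an adjusted p under 0.05 with a 2-fold difference, which 0.371% had. The Timp1 gene overlaps Syn1 in the annotation, and the strand of counting is not given in the sources used here. Syn1 was also called higher at week 4, at far lower levels (means of 0.297 FPKM in normal and 0.807 FPKM in PBOO samples). Syn1 reached the filter only through its PBOO samples. Its part in the Timp1 value was not tested. Timp2 likewise overlaps Cep295nl, and Timp3 overlaps Syn3.

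Mmp2, Mmp14, Timp2 and Timp3 were not called at week 4, all with differences under 2-fold. Mmp2 (gelatinase A), which cuts basement membrane collagen, had 39.1, 120 and 121 FPKM in normal and 153, 153 and 162 FPKM in PBOO samples. The low normal value came from the sample with low fibroblast markers, whose part in the difference was not tested. The log2 difference of Mmp2 was 0.91 (standard error 0.42, limma adjusted p = 0.180), and it was 0.37 without that sample (limma adjusted p = 0.125). Without normal replicate 2 or 3 it was 1.18 in each case and Mmp2 was called. Mmp14, the membrane-bound MMP that activates pro-Mmp2 on the cell surface, had 51.1 to 68.2 FPKM in normal and 66.5 to 87.0 FPKM in PBOO samples, and its groups overlapped (log2 difference 0.38, standard error 0.15). Timp2, which links Mmp14 to pro-Mmp2 as well as blocking MMPs, had 226 to 325 FPKM in normal and 370 to 412 FPKM in PBOO samples (log2 difference 0.48, standard error 0.16, limma adjusted p = 0.106). Timp3, the inhibitor that stays bound to the matrix, had 85.0 to 117 FPKM in normal and 107 to 177 FPKM in PBOO samples (log2 difference 0.59, standard error 0.22). The groups did not overlap in 4 of the 8 tested members, all with PBOO above normal (Timp1, Timp2, Mmp2 and Mmp3), and in 6.63% of all genes with PBOO above (34.9% with PBOO below). The median log2 difference of all genes was -0.25 and that of the 8 members 0.57.

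The inducible proteinases stayed low in all 6 samples of week 4. Mmp3 (stromelysin) had 1.19, 1.32 and 1.37 FPKM in normal and 1.52, 1.95 and 2.47 FPKM in PBOO samples, a log2 difference of 0.55 (standard error 0.27). Mmp7 (matrilysin, made mainly by epithelium) had 0.0939, 0.149 and 1.03 FPKM in normal and 0.0929, 0.221 and 2.83 FPKM in PBOO samples, so its groups overlapped almost fully. It reached the filter only through its PBOO samples. Mmp13 (collagenase) lay between 0.331 and 1.97 FPKM over both groups, with a log2 difference of 0.56 (standard error 0.68). Mmp9 and Mmp10 were below 0.4 FPKM in every sample and were not tested.

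The same comparison was made at week 5, after that turning point. Mmp7, Mmp13, Mmp9, Mmp3 and Mmp10 rose, Mmp2, Timp3 and Timp2 fell, and Mmp14 and Timp1 were not called. Among all 13685 genes tested, 9.82% were called higher and 12.6% lower, against 5 and 3 of the 10 members. Mmp9, Mmp10 and Mmp13 reached the filter only through their PBOO samples. Once tested, their PBOO mean had to lie above their normal mean, so these counts are descriptions. At the 4-fold threshold used in the study for this week, the 5 members that rose were still called, and of those that fell only Mmp2 was (3.59% of all genes higher and 6.88% lower). The groups were apart with PBOO above in 5 members and with PBOO below in 3 (35.3% and 25.0% of all genes tested). All 8 calls also had a limma adjusted p under 0.05, as did 19.3% of all genes with a 2-fold difference. This did not hold in every alternative. Without any 1 of the normal samples, the limma adjusted p was between 0.0502 and 0.0538 for Mmp9 and between 0.0774 and 0.0966 for Timp2. For Mmp2 it was 0.0535 without normal replicate 1 and 0.0516 without normal replicate 2, and for Mmp9 with a pseudocount of 1 it was 0.0608 (log2 difference 3.36).

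**Figure D4:**
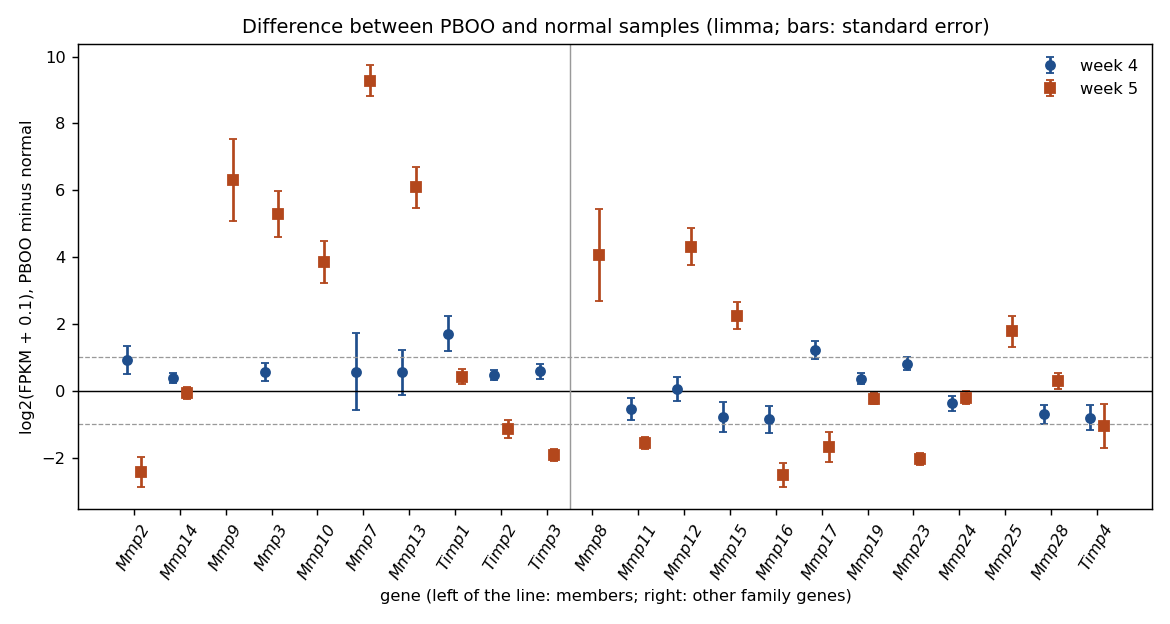
Difference of log2(FPKM + 0.1) between PBOO and normal samples with its standard error from limma, at week 4 (circles) and week 5 (squares), for members (left) and other family genes (right). Dashed lines mark a 2-fold difference. Mmp7 stands highest at week 5 with 9.28. Mmp2, Timp2, Timp3, Mmp11, Mmp16, Mmp17, Mmp23 and Timp4 are below the lower line at week 5.

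Mmp7 had the widest difference of the members. Normal samples had 0.415, 0.688 and 0.870 FPKM, and PBOO samples had 285 and 730 FPKM, so both PBOO samples lay far above all normal samples. It had the highest level of all members in PBOO bladder. The log2 difference was 9.28 (standard error 0.46, limma adjusted p = 0.000288). Among the stromelysins, which cut a wide range of matrix proteins and can activate other pro-MMPs, Mmp3 went from 0.322, 0.427 and 1.09 FPKM to 12.8 and 48.4 FPKM (log2 difference 5.28, standard error 0.69, limma adjusted p = 0.00439). Mmp10 had 0.0748 to 0.156 FPKM in normal and 1.48 and 5.08 FPKM in PBOO samples (log2 difference 3.85, standard error 0.63, limma adjusted p = 0.00886). Reads of these 2 similar genes may be shared, so their split is uncertain. Mmp13, a collagenase that opens fibrillar collagen, had 0.0346, 0.288 and 0.460 FPKM in normal samples. In the PBOO samples it had 20.1 and 21.7 FPKM, the closest replicates among the members that rose (log2 difference 6.09, standard error 0.62, limma adjusted p = 0.00206).

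Mmp9 (gelatinase B), an enzyme stored in neutrophils and also made by macrophages and epithelium, differed most between the PBOO replicates. It was listed at 0, 0 and 0.0211 FPKM in normal samples and at 1.83 and 36.7 FPKM in PBOO replicates 1 and 2. The log2 difference was 6.30 (standard error 1.22, limma adjusted p = 0.0149), and with so low a control it depends on the added 0.1. It was 8.43 without PBOO replicate 1. Mmp8, the neutrophil collagenase, followed the same order with 0.263 and 9.25 FPKM, as did the neutrophil proteins S100a9 with 8.87 and 287 FPKM and S100a8 with 2.74 and 145 FPKM. Their part in the Mmp9 level was not tested. Mmp3, Mmp7 and Mmp10 were also higher in replicate 2, whereas Mmp13 was nearly level. Without PBOO replicate 2, Mmp9 and Mmp10 no longer passed the filter, and Mmp7, Mmp3 and Mmp13 had log2 differences of 8.60, 4.33 and 6.03. Without PBOO replicate 1 these were 9.96, 6.24 and 6.14, and that of Mmp10 was 4.70.

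Mmp2, Timp3 and Timp2, which were well expressed in normal bladder, fell at week 5. Mmp2 had 38.4, 62.8 and 65.4 FPKM in normal and, in PBOO samples, 6.08 and 16.0 FPKM. It fell by 2.44 on the log2 scale (standard error 0.45, limma adjusted p = 0.0132), and the log2 difference was -1.75 without PBOO replicate 1 and -3.13 without PBOO replicate 2. Timp3 had 21.3, 25.8 and 28.3 FPKM in normal and 5.88 and 7.19 FPKM in PBOO samples (log2 difference -1.92, standard error 0.18, limma adjusted p = 0.00145). Timp2 had 151, 166 and 181 FPKM in normal and 55.2 and 103 FPKM in PBOO samples, a log2 difference of -1.13 (standard error 0.27, limma adjusted p = 0.0298), which was -0.68 and below the 2-fold threshold without PBOO replicate 2, and -1.58 without PBOO replicate 1. In each of these genes both PBOO samples lay below all normal samples. All 8 fibroblast and all 8 smooth muscle markers were called lower in the same comparison, as were 12.6% of all genes. The median log2 differences of these lists were -3.54 and -4.13, against 0.12 for all genes. The part of these markers in the lower Mmp2, Timp2 and Timp3 was not tested.

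Mmp14 and Timp1 did not follow either group. Mmp14 had 68.0, 82.1 and 84.3 FPKM in normal and 64.5 and 86.8 FPKM in PBOO samples, overlapping groups with a log2 difference of -0.06 (standard error 0.18). Timp1 had 13.4, 13.7 and 20.3 FPKM in normal and 18.6 and 23.4 FPKM in PBOO samples, a log2 difference of 0.43 (standard error 0.23, limma adjusted p = 0.211). The ratio of Mmp14 to Mmp2 in FPKM was 1.25 to 1.77 in normal bladder and 14.3 and 4.02 in PBOO replicates 1 and 2.

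Whether the PBOO effect itself differed between weeks was tested as an interaction over all 11 samples, with the limma adjusted p over 11296 genes. It differed in 8 of the 10 members, where 40.0% of all genes did. Mmp9 and Mmp10 were below the filter at week 4 and entered through the PBOO samples of week 5. Such an entry favours a difference, so the count is a description. The difference of the effects (week 5 minus week 4, log2) was 8.71 for Mmp7 (standard error 1.45, adjusted p = 0.00145), 5.52 for Mmp13, 4.73 for Mmp3, 5.64 for Mmp9 and 3.11 for Mmp10 (2.91 with an adjusted p of 0.0573 after quantile normalization). It was -3.35 for Mmp2 (standard error 0.68, adjusted p = 0.00412), -2.51 for Timp3 and -1.61 for Timp2. For Timp1 the difference of -1.28 (standard error 0.68, adjusted p = 0.152) and for Mmp14 that of -0.44 (adjusted p = 0.168) did not pass. After median-ratio scaling Mmp14 did pass (-0.73, adjusted p = 0.0433). Timp1 was thus called at week 4 and not at week 5 without a shown difference between the weeks, and of the 11 samples left out in turn, its interaction passed without PBOO replicate 1 of week 4 only (-1.85, adjusted p = 0.0127).

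FPKM values are scaled to gene length, so they can be added. The 7 MMP members summed to 92.0, 191 and 181 FPKM in normal and 247, 232 and 232 FPKM in PBOO samples of week 4, and Mmp2 with Mmp14 made up 97.0% to 98.9% of that sum. The 3 TIMPs summed to 362, 479 and 488 FPKM in normal and 561, 760 and 1004 FPKM in PBOO samples. Summed TIMPs stood at 2.51 to 3.94 times summed MMPs in normal bladder and at 2.27 to 4.32 times in PBOO bladder, and the groups overlapped. At week 5 the MMP sum was 150, 149 and 108 FPKM in normal and 414 and 923 FPKM in PBOO samples. Mmp7 alone made up 68.8% and 79.1% of the sum in PBOO, against 0.279% to 0.639% in normal samples. The TIMP sum was 190 to 229 FPKM in normal and 129 and 84.5 FPKM in PBOO samples. The ratio of TIMP to MMP transcript was 1.34, 1.54 and 1.77 in normal and 0.311 and 0.0916 in PBOO samples of week 5, where the groups did not overlap. These sums weigh every transcript alike and were not tested. They also leave out the other MMP and TIMP genes. Mmp28 alone had 96.9 to 137 FPKM in normal and 174 and 119 FPKM in PBOO samples of week 5. With Mmp28 added, the MMP sum would exceed the TIMP sum in every normal sample of week 5. Which sum is the larger in normal bladder of that week thus depends on the genes chosen.

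**Figure D5:**
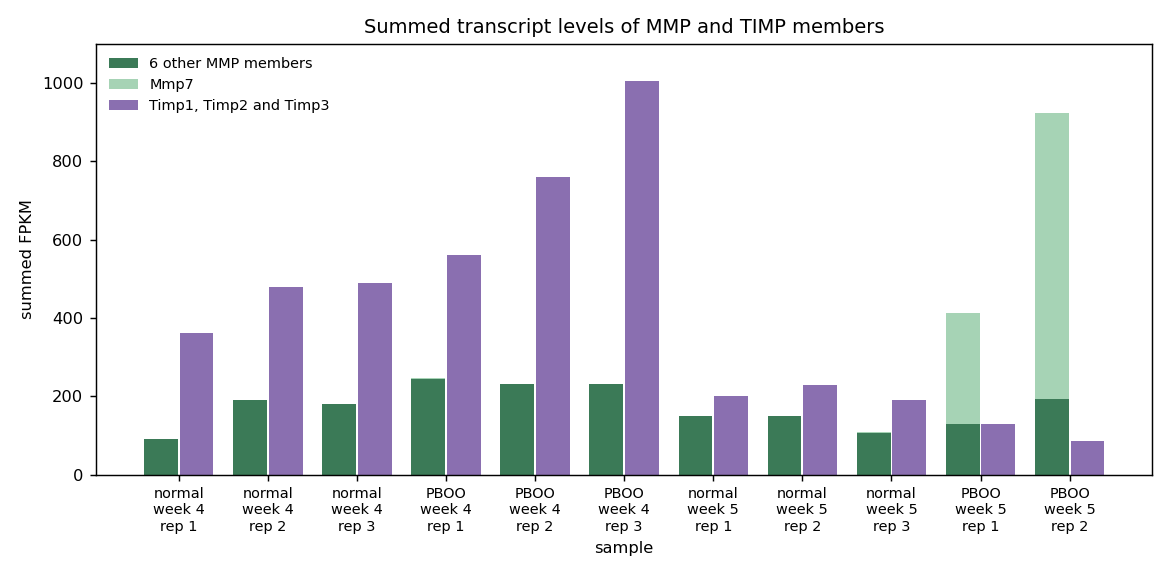
Summed FPKM of the 7 MMP members (green, with Mmp7 in light green) and of the 3 TIMP members (purple) in each of the 11 samples. For these members, TIMP sums exceed MMP sums in the 9 samples of the other groups, and MMP sums exceed TIMP sums in both PBOO samples of week 5. Other MMP and TIMP genes, among them Mmp28, are not in these sums.

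Of 16 other MMP and TIMP genes listed, 15 were in the table, and 10 were tested at week 4, when 4.90% of all genes were called in either direction. Mmp17, a membrane-anchored MMP, was the only one called, with 1.16 to 1.41 FPKM in normal and 2.41 to 4.22 FPKM in PBOO samples (log2 difference 1.22, standard error 0.27, limma adjusted p = 0.0629). Mmp23 had a log2 difference of 0.82 and Mmp19 of 0.37, with PBOO above normal in all samples, and Mmp16 (-0.85) and Mmp24 (-0.37) had PBOO below normal in all samples. The values of Mmp16, Timp4, Mmp15, Mmp28, Mmp11, Mmp24 and Mmp12 ranged from -0.85 for Mmp16 to 0.05 for Mmp12. At week 5, 12 were tested, of which 4 rose and 4 fell, against 9.82% and 12.6% of all genes. Of those that rose, Mmp8, Mmp12 and Mmp25 reached the filter only through their PBOO samples, so their PBOO mean had to be the higher. Mmp12 (macrophage elastase), which lies next to Mmp13 and shares the AP-1 and TATA letters, had 0.113 to 0.412 FPKM in normal and 4.32 and 10.5 FPKM in PBOO samples (log2 difference 4.31, standard error 0.56, limma adjusted p = 0.00422). Mmp8 had a log2 difference of 4.06 (standard error 1.38, limma adjusted p = 0.0771), and Mmp15, a membrane-type MMP, one of 2.25 (limma adjusted p = 0.0126), from 11.7 to 22.2 FPKM in normal to 106 and 49.4 FPKM in PBOO samples. Mmp25, found in leukocytes, had a log2 difference of 1.78 and was listed at 0 in every sample of week 4. Those that fell were Mmp16 (-2.52), Mmp23 (-2.04), Mmp17 (-1.68) and Mmp11 (-1.55). Mmp28 had a high level in normal bladder of week 5, 118 ± 20.3 FPKM (SD, n = 3), and a log2 difference of 0.29. Timp4 (-1.05), Mmp19 (-0.23) and Mmp24 (-0.20) were not called.

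Genes that activate or restrain MMPs were taken from a fixed list of 20. At week 4, 3 of the 16 tested rose and 1 fell, against 2.46% and 2.45% of all genes. Thbs1 (thrombospondin) rose by 2.39 on the log2 scale with overlapping groups, Serpine2, an inhibitor of plasminogen activators, by 1.43 and the proprotein convertase Pcsk6 from a mean of 5.48 to 10.9 FPKM, while Lcn2, which binds Mmp9, had -1.29. At week 5, 5 of 15 rose and 7 fell, against 9.82% and 12.6% of all genes. Furin, which cuts the propeptide of membrane-type MMPs, had 45.5 to 52.7 FPKM in normal and 149 and 142 FPKM in PBOO samples (log2 difference 1.54, standard error 0.12, limma adjusted p = 0.000936). Plat, the tissue plasminogen activator, had a log2 difference of 1.95 and Lcn2 of 3.56, the latter with a limma adjusted p of 0.0909. Reck, a membrane-anchored inhibitor of MMPs, had 4.97 to 6.61 FPKM in normal and 0.674 and 0.637 FPKM in PBOO samples (log2 difference -2.98, standard error 0.21, limma adjusted p = 0.000657). Thbs2 and the broad proteinase inhibitor A2m had log2 differences of -2.97 and -2.78.

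Among the related ADAM and ADAMTS proteinases (26 listed), 1 of 17 tested rose at week 4, Adam9 with a log2 difference of 1.03. At week 4, 2.46% of all genes were called higher. At week 5, 2 of 22 rose and 7 fell, against 9.82% and 12.6% of all genes. Adam8, an enzyme of leukocytes and epithelium, had a log2 difference of 5.57 (standard error 0.34, limma adjusted p = 0.000458), and Adam17, which sheds Tnf and ligands of the EGF receptor and is blocked by Timp3, one of 1.09. The decreases were led by Adamts19 (-3.74), Adamts2 (-3.54), which trims procollagen, and the aggrecanase Adamts5 (-3.24).

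Of 20 matrix genes whose products MMPs cut, 8 of 14 tested rose at week 4 and 0 fell in limma (9 and 0 at an unadjusted p under 0.05 alone, where 5.76% and 26.2% of all genes passed in those directions), led by Fn1 (fibronectin, log2 difference 2.61), Eln (elastin, 2.14) and Vcan (versican, 2.01). At week 5, 16 of 18 tested fell and 0 rose (18 and 0 at an unadjusted p under 0.05 alone, where 18.8% and 24.6% of all genes passed), led by Col14a1 (-4.54), Col1a2 (-4.13) and Col1a1 (-3.80). The median log2 difference of the list was 1.32 at week 4 and -2.60 at week 5, against -0.25 and 0.12 for all genes. The genes tested differ between the weeks, so these counts and medians do not cover the same genes. Col4a2, Col6a1, Lamb1, Nid1 and Hspg2 were listed at 0 in every sample of week 4, and Vcan was tested at week 4 only. Col1a1, Col1a2, Col3a1 and Dcn are also on the fibroblast list. Of 8 smooth muscle markers, 3 rose at week 4 (Actg2 2.27, Cnn1 1.89, Des 1.88), as did 2.46% of all genes.

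Cytokines and factors linked to MMP transcription (25 listed) were called lower in 5 of 23 tested at week 4 and higher in 0 in limma (6 and 1 at an unadjusted p under 0.05 alone, against 26.2% and 5.76% of all genes). The list includes Nfkbia, an inhibitor of NF-kB. It is among those called lower at week 4 (-1.08) and higher at week 5 (2.39), so the counts do not measure inducers alone. Fosb, Egr1 and Fos had the lowest values, with log2 differences of -2.12, -2.05 and -2.04. At week 5, 12 of 24 rose and 1 fell, against 9.82% and 12.6% of all genes. Il1a and Tnf were among those that rose, but reached the filter only through their PBOO samples, so their PBOO mean had to be the higher. Il1a, an alarmin released by epithelium, had 0 to 0.156 FPKM in normal and 33.7 and 30.9 FPKM in PBOO samples (log2 difference 7.50, standard error 0.46, limma adjusted p = 0.000459). Il1b and Tnf each had a log2 difference of 3.92. The gene that fell was Fgf2 (-2.54), named after its value was seen. The AP-1 genes were likewise named after their values were seen. Fos, Jun and Fosb had overlapping groups at week 5 and were not called, nor was Fosl1 (-0.36). Fosl2 had PBOO above normal in all samples at week 5 with a difference under 2-fold (log2 difference 0.82, limma adjusted p = 0.0360). Junb was called lower at week 4 (log2 difference -1.04, limma adjusted p = 0.0478) and higher at week 5 (1.08, limma adjusted p = 0.0591).

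The marker lists gave the following counts. Over all genes tested, 2.46% were called higher and 2.45% lower at week 4, and 9.82% higher and 12.6% lower at week 5. At week 4, called higher were 1 of 8 fibroblast markers (Pi16, 1.56), 2 of 6 mast cell markers (Tpsab1 1.88 and Cma1 1.45) and 2 of 8 skeletal muscle markers (Acta1 2.88 and Tnnt3 1.81), and called lower were 1 of 8 urothelium markers (Krt20, -1.21) and 3 of 7 nerve and glia markers. At an unadjusted p under 0.05 with no fold threshold, 7 of those 8 and 5 of those 7 were lower, as were 26.2% of all genes, and the median log2 difference of the urothelium list was -0.74. The 4 neutrophil, 7 macrophage, 5 T and B cell and 7 endothelium markers tested gave 0 calls in limma at week 4 (0, 0, 1 and 3 at an unadjusted p under 0.05 alone, all lower). Of the 10 neutrophil markers, 5 were tested at week 5 and rose, of which Cxcr2, Csf3r and Mmp8 passed the filter only through their PBOO samples. Mpo, Elane, Camp, Ngp and Fpr1 were below 0.8 FPKM in every sample of week 5 and were not tested. Also higher at week 5 were 1 of 7 macrophage (Cd68, 3.22), 2 of 5 T and B cell (Cd3d, which passed the filter only through PBOO, 3.09 and Cd3e 3.01), 1 of 7 endothelium (Vwf, 2.22) and 2 of 6 skeletal muscle markers, while the other 4 of the latter fell. Of the 6 mast cell markers only Kit, which other cells also express, was tested at week 5 (log2 difference 1.57), and Cma1 and Mcpt1 were listed at 0 in both PBOO samples. Of 7 nerve and glia markers 5 fell. Within the urothelium list, Krt5, a keratin of basal cells, rose by 3.52 on the log2 scale, while Krt20 (-6.47), Upk3b (-3.17) and Upk2 (-2.39), which mark the superficial layer, fell. So did Upk1a (-1.11, limma adjusted p = 0.0566), whereas Upk1b (-0.76) and Upk3a (0.03, with overlapping groups) were not called. Krt5 had 780 and 2859 FPKM in PBOO replicates 1 and 2, the same order as Mmp7, and its part in the Mmp7 level was not tested.

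Finally, the genes with the most similar pattern were listed for each of the 8 members tested in both weeks, by Pearson's r of log2(FPKM + 0.1) centred on each week, over 11 samples and 10684 genes. These values are descriptions, since all points share the libraries and the contrast between groups. Mmp2 was nearest to Lum (lumican, r = 0.982), Ctsk (cathepsin K, 0.977) and Htra3 (0.967), of which Lum is on the fibroblast list. Mmp7 was nearest to Duoxa2 (0.976), Wfdc18 (0.968) and Gpx2 (0.967). Mmp3 was nearest to Trpv2 (0.995), Col7a1 (0.990) and Mmp12 (0.989), and Mmp13 to Tlr4 (0.978), Rnase1l1 (0.976) and Smox (0.972). Timp2 was nearest to App (0.977), Itgbl1 (0.976) and Mfap5 (0.975), and Timp3 to Maged2 (0.984), Hspb7 (0.978) and Vps41 (0.977). The nearest genes of Timp1 were Rab21 (0.945), Ldha (0.939) and Mllt11 (0.939), and those of Mmp14 were Qsox1 (0.854), Ppp2r3a (0.804) and Acot3 (0.763). Among the members, r was 0.939 for Mmp3 with Mmp7, 0.946 for Mmp3 with Mmp13 and 0.828 for Mmp2 with Timp3. Timp1 had an r between 0.0985 and 0.373 with every other member tested in both weeks, and Mmp14 stood at 0.563 or less with all of them.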

How the data were processed

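Bladder RNA-seq of 11 samples was analysed from the deposited table. Its FPKM values were made by the authors, who trimmed paired reads with SeqPrep and Sickle, mapped them with HISAT2, assembled transcripts with StringTie and computed FPKM with featureCounts. The submitters' processing notes name the mouse build mm10 although the samples are rat, and the rat build, annotation and strand are not given in the sources used here. Columns were assigned from the sample labels, all 11 were used, and the values were not scaled further. The authors' DESeq2 test needs read counts, so it was not run.

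Each week was fitted in R 4.3.3 with limma 3.58.1 (trend in eBayes) on log2(FPKM + 0.1), keeping genes that averaged 0.5 FPKM or more. Adjusted p-values are Benjamini-Hochberg values over all genes tested. The difference between weeks was fitted over 11 samples and the genes that also had a value above 0 in each week. The study gives a 2-fold threshold for week 4 and 4-fold for week 5, and 2-fold is used here for both. The members and lists were chosen with earlier results of these data known. All members are described, with every other MMP or TIMP gene tested and, from further lists, up to 3 called genes per direction and week with a mean of at least 1 FPKM. Some further genes of these lists were added after their values were seen. The scripts were checked on made-up data with known answers. No clear trace of whole reads was seen in the low values (9.96% to 13.3% of genes under 0.1 FPKM within 0.5% of ratios of small whole numbers, 7.32% to 11.7% after shuffling), so depth is unknown. Alternatives were the pseudocount, filter, scaling, trend, shared fit, replicate block and leaving out each sample. Promoters were read from RefSeq (GRCr8), and RefSeq symbols matched all 10 members. Python 3.11.15, pandas 2.3.3 and matplotlib 3.10.9 were used.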

Additional observations from a re-analysis of the deposited data

Results flagged for a closer look

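The effect of PBOO differed between week 5 and week 4 by the interaction test of limma (adjusted p under 0.05 over all genes tested, which 40.0% of them passed) in 8 members and 5 other family genes. The log2 difference of the effects, week 5 minus week 4, was above 0 for Mmp7 (8.71), Mmp9 (5.64), Mmp13 (5.52), Mmp3 (4.73), Mmp12 (4.26), Mmp10 (3.11) and Mmp15 (3.04). It was below 0 for Mmp2 (-3.35), Mmp17 (-2.90), Mmp23 (-2.85), Timp3 (-2.51), Mmp16 (-1.67) and Timp2 (-1.61). Mmp9 and Mmp10 entered this test through the PBOO samples of week 5, which favours a difference. Among these genes, Mmp17 was called higher at week 4 and lower at week 5. The weeks also differ in how many genes were listed at 0, and week and sample processing cannot be told apart. Groups of 3 or fewer samples were not searched for outlying samples.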

How the results depend on the processing

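Depth is unknown and limits the low members most. The 555 calls of week 4 became 336 with a pseudocount of 1 and ranged from 352 (without PBOO replicate 3) to 1024 (without PBOO replicate 1) when samples were left out in turn. Calls with an adjusted p under 0.05 went from 42 to between 0 and 719 over all alternatives of week 4. Median-ratio scaling moved the median of all genes at week 4 from -0.25 to -0.01 and the split of calls from 278 higher and 277 lower to 412 and 117 (367 and 146 with quantile normalization), and both scalings called 2 members higher at week 4 in place of 1, adding Mmp2. Leaving out samples gave 1 to 2. For the difference between weeks, 66.2% of the genes with an adjusted p under 0.05 were above 0, and 48.1% after median-ratio and 52.9% after quantile scaling. At week 5, 3 to 5 members were called higher when samples were left out, and likewise 3 to 5 in the difference between weeks, the low value being without PBOO replicate 2 of week 5 in both, where Mmp9 and Mmp10 fell below the filter. Mmp14 at week 5 ranged from -0.27 to 0.16 when samples were left out, with 0.0024 without normal replicate 1. Of the member values under all alternatives, 381 kept direction and call (2-fold calls within a week, adjusted p between weeks), 6 gained a call, 2 lost it (Timp2 at week 5 without PBOO replicate 2 and Mmp10 between weeks after quantile normalization) and 2 turned direction (Mmp14). A member below the filter in an alternative has no value there, so calls lost in that way are not in this tally. Among them was Mmp10 at week 5 with a filter at 2 FPKM, where 4 members were called higher in place of 5. Whether the replicate numbers pair the samples could not be decided from so few samples. At week 4 same-numbered samples had correlations of deviations of 0.154, -0.0241 and 0.232, and not every sample correlated best with its own number. With the number as a replicate block, the calls numbered 597 in week 4 and 3026 in week 5 (3071 without it), and no member changed its call.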
